A study of Mus musculus with 12 samples.

Results

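Serpins are a family of protease inhibitors, and 63 gene symbols of mouse ear skin begin with Serpin among the 23234 symbols listed in each of 12 RNA sequencing libraries. The members described with values are the 38 that reached 1 FPKM in at least 1 library; FPKM count sequenced fragments relative to transcript length and to all mapped fragments, so levels can be set side by side between genes. The other 25 stayed under 1 FPKM in every library, 22 of them above 0 somewhere and 3 listed at 0 throughout (Serpinb9c, Serpini2 and Serpina7). Just inside the limit stood Serpina3m, at most 1.02 FPKM, and Serpine3, at most 1.14 FPKM. Just outside it stood Serpina1e, at most 0.985 FPKM. Of the 38, 36 reached 1 FPKM in at least 3 libraries and were tested for differences; Serpina3m and Serpine3 did so in 1 or 2 libraries only.

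The libraries form 4 groups of 3, all from mice aged 8 to 12 weeks. Ears of the group labelled VDRcKO_Oxarol came from K5-Cre;VDR f/f mice, in which Cre recombinase under the keratin 5 promoter removes floxed Vdr (the vitamin D receptor gene) in basal keratinocytes and the cells they give rise to; Vdr of other skin cells is not targeted. They received 100 mg of Oxarol, an ointment that carries 2.5 µg of maxacalcitol, an active vitamin D analogue, and were taken 1 day later. WT_Oxarol ears were wild-type C57BL/6J and received the same ointment for the same time. WT_PBS ears, also wild-type C57BL/6J, were taken 1 day after phosphate-buffered saline, not after the ointment base without drug, and WT_untreated ears of that strain received nothing. The strain background of the K5-Cre;VDR f/f mice is given only as their genotype, and no untreated, PBS or Cre-negative ears of that line are among the groups. Whether the 3 libraries of a group are 3 animals is not stated in the labels, and p-values therefore cover the spread between libraries, which may be technical.

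Most serpins act as suicide substrates: a protease cuts an exposed reactive loop of the serpin, the serpin snaps shut, and the protease is held in an inactive complex. Clade B members (Serpinb) work mostly inside the cell or at its surface and are typical of keratinocytes and blood cells, where they restrain cathepsins, granzymes and elastase. Clade A members (Serpina) are mostly secreted, as is C1 inhibitor. A few have lost the inhibitory function, among them the collagen chaperone Hsp47. In mice the clade B and clade A genes have multiplied into clusters of neighbouring copies. The annotation places 12 of the 63 in a Serpinb cluster on chromosome 1, 15 in a Serpinb cluster on chromosome 13 and 24 in a Serpina cluster on chromosome 12; 12 more stand alone. All 12 genes of the chromosome 1 cluster were tested, against 9 of 15 on chromosome 13, 11 of 24 on chromosome 12 and 4 of the 12 single genes.

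The targeted gene does not check the labels at the level of the whole gene. Vdr read 23.55, 25.04 and 17.98 FPKM in the 3 libraries labelled VDRcKO_Oxarol, above the 4.87 to 10.1 FPKM of the 9 wild-type libraries, and a gene total does not tell transcripts with the floxed part from those without it. Cyp24a1, the vitamin D catabolic enzyme and a textbook receptor target, was at most 0.271 FPKM in the libraries labelled VDRcKO_Oxarol and 66.2, 599 and 458 FPKM in WT_Oxarol replicates 1, 2 and 3. Depth, estimated from the value that a single fragment adds to low genes, was, in units of 1000000 fragments, 4.95 to 7.25 in VDRcKO_Oxarol, 7.99 to 25.8 in WT_Oxarol, 13.9 to 123 in WT_PBS and 11.1 to 15.7 in WT_untreated. The library codes fall into 2 series of numbers; the second holds all 3 VDRcKO_Oxarol libraries and replicate 3 of each wild-type group, and the labels do not call it a batch. Hair follicle markers summed to 1629, 946 and 404 FPKM in VDRcKO_Oxarol replicates 1, 2 and 3 and to 98.1, 19.0 and 19.6 in WT_Oxarol. The sums were 33.5, 43.0 and 516 FPKM in WT_PBS and 46.8, 49.9 and 252 in WT_untreated. In these last groups the high sum was that of replicate 3 alone, a library of the second code series. Macrophage markers summed to 1056 to 1384 FPKM in VDRcKO_Oxarol and to 591 to 803 FPKM in the wild-type groups. Basal keratinocyte markers summed to 2993 to 3244 FPKM in VDRcKO_Oxarol, 2829 to 4022 in WT_Oxarol, 3696 to 4377 in WT_PBS and 3684 to 4490 in WT_untreated, so epidermal transcripts were present in every library. Of the 18 hair follicle, 11 macrophage and 7 basal keratinocyte markers measured, none was listed at 0 through a whole group.

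Serpin expression in ear skin was concentrated in few genes. The 10 most abundant members carried 77.1% to 81.9% of the summed serpin FPKM of a library. The sum itself was 1878 to 2073 FPKM in VDRcKO_Oxarol, 1886 to 1910 in WT_Oxarol, 1914 to 1939 in WT_PBS and 1870 to 2207 in WT_untreated, so WT_Oxarol lay just below WT_PBS and both lay within the range of the untreated ears. Serpinb5 (maspin, a keratinocyte serpin without known protease-inhibiting activity) was the highest, with 245, 264 and 273 FPKM in VDRcKO_Oxarol, 327, 290 and 307 in WT_Oxarol, 297, 358 and 273 in WT_PBS and 341, 255 and 215 in WT_untreated. Serpinf1 (pigment epithelium-derived factor, a secreted non-inhibitory serpin that restrains blood vessel growth) followed at a mean of 255 FPKM over the 12 libraries, then Serping1 (C1 inhibitor) at 185, Serpinh1 (Hsp47) at 182, Serpinb7 (megsin, mutated in human Nagashima-type palmoplantar keratosis) at 150 and Serpinb2 (plasminogen activator inhibitor 2) at 147 FPKM. Serpinb6d averaged 110 FPKM, Serpinb12 91.2, Serpina12 (vaspin, an inhibitor of kallikrein 7) 87.4 and Serpinb6a, an inhibitor of cathepsin G, 70.4 FPKM.

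**Figure D1:**
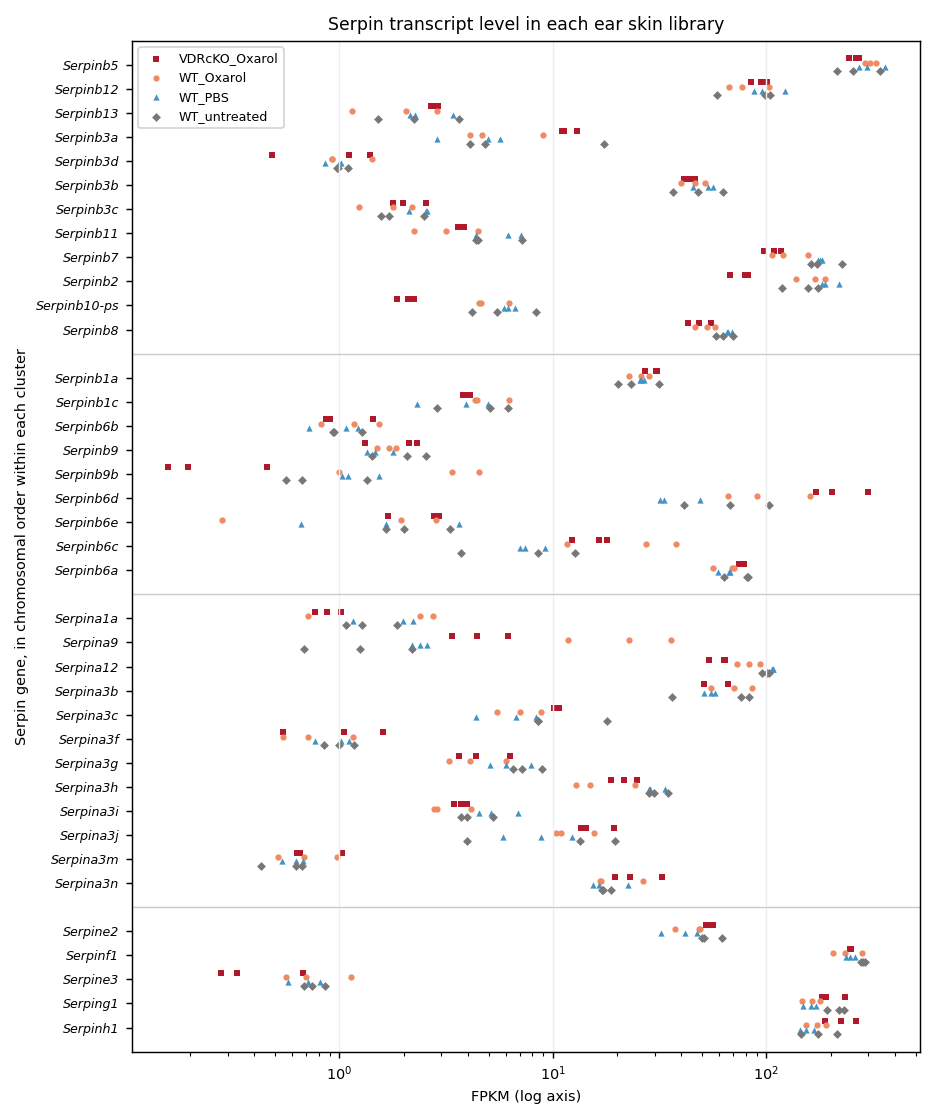
FPKM on a log axis (horizontal) of the 38 serpins that reached 1 FPKM in at least 1 library, 1 point a library, with the 4 groups as marker shapes and the genes of each chromosomal cluster in map order (chromosome 1, chromosome 13, chromosome 12, single genes, from the top). Levels run from under 1 FPKM for Serpinb9b in VDRcKO_Oxarol to over 200 FPKM for Serpinb5 and Serpinf1; for most genes the groups overlap.

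Among secreted serpins of the chromosome 12 cluster, the ointment was followed by a higher level of Serpina9, the mouse gene of a serpin known in humans as centerin from germinal centre B cells. Serpina9 read 11.7, 35.8 and 22.7 FPKM in WT_Oxarol, against 2.58, 2.20 and 2.39 FPKM in WT_PBS. All 3 WT_Oxarol libraries lay above all WT_PBS libraries, and WT_Oxarol replicate 1, the lowest of its group for Cyp24a1, was the lowest for Serpina9 too. On the log2(FPKM + 1) scale the difference was 2.72 ± 0.35 (SE; limma with Benjamini-Hochberg adjustment over 14059 genes, adjusted p = 0.0096). It was the only 1 of 36 tested serpins to pass (2.78%), where 0.306% of all genes tested passed (0.249% higher and 0.0569% lower). An unadjusted p under 0.05 was found for 10 of the 36 serpins and for 1047 of the 14059 genes. WT_untreated ears held 0.69, 2.19 and 1.25 FPKM of Serpina9, all below WT_Oxarol, and the difference from them was 3.28 ± 0.35 (SE, adjusted p = 0.0024); it was again the single serpin called, with 1.31% of all genes tested called (0.989% higher and 0.32% lower). The WT_PBS call was lost when only the WT_Oxarol and WT_PBS libraries were fitted, in the first code series alone (difference 2.68), without WT_Oxarol replicate 3, without WT_PBS replicate 1 and without the pair of WT_untreated replicate 3 and WT_PBS replicate 3, with adjusted p-values up to 0.706 and differences of 2.36 to 3.12 over 21 alternatives; the WT_untreated call was lost under the first 2 of these. Without WT_Oxarol replicate 1 the serpins called were 3 against WT_PBS and 5 against WT_untreated.

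In the libraries labelled VDRcKO_Oxarol Serpina9 read 4.40, 6.19 and 3.37 FPKM, below every WT_Oxarol library and above every WT_PBS library. It was lower than in WT_Oxarol by a log2 difference of -2.01 ± 0.35 (SE, limma adjusted p = 0.011) and differed from WT_PBS by 0.71 ± 0.35 (SE, adjusted p = 0.18). These comparisons share their WT_Oxarol and WT_PBS libraries and are not independent of each other. Within the second code series the difference from WT_Oxarol was -2.10 (adjusted p = 0.11).

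Serpina12 was the other secreted member called, and it was highest without the ointment. It read 53.9, 64.0 and 63.4 FPKM in VDRcKO_Oxarol, against 93.0, 72.5 and 82.8 FPKM in WT_Oxarol and 108, 107 and 106 FPKM in WT_PBS. WT_untreated ears held 103, 101 and 95.03 FPKM. The 3 treated groups did not overlap with each other. The differences of VDRcKO_Oxarol were -0.44 ± 0.10 from WT_Oxarol (SE, limma adjusted p = 0.021) and -0.82 ± 0.10 from WT_PBS (SE, adjusted p = 0.0018). The first of these passed neither with the code series as a term (adjusted p = 0.094) nor without VDRcKO_Oxarol replicate 1, WT_Oxarol replicate 1 or WT_Oxarol replicate 3. Within the second code series the differences were -0.45 (adjusted p = 0.17) and -0.80 (adjusted p = 0.14). Between WT_Oxarol and WT_PBS Serpina12 had a difference of -0.37 ± 0.10 that did not pass (adjusted p = 0.23).

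Other Serpina genes passed in none of the 5 comparisons as fitted over all 12 libraries. Serpina1a passed as lower against WT_Oxarol without WT_Oxarol replicate 3 (limma adjusted p = 0.028), and Serpina3c as higher against WT_PBS without WT_untreated replicate 3 (adjusted p = 0.048) or without both WT_untreated replicate 3 and WT_PBS replicate 3 (adjusted p = 0.027), in each case in VDRcKO_Oxarol. Of the 50-base stretches of Serpina1a, 67.4% occur in other genes, its copies among them. Its copy Serpina1e read 0.719 to 0.985 FPKM in VDRcKO_Oxarol and at most 0.178 FPKM in the wild-type groups. Reads may be split between these copies, which was not tested. Among the tested genes, the copies related to human antichymotrypsin (Serpina3) ran from Serpina3b at a mean of 61.5 FPKM to Serpina3f at 0.960 FPKM. Between them stood Serpina3h at 25.01 FPKM, which the annotation lists as a transcribed pseudogene, and Serpina3n (an inhibitor of granzyme B and cathepsin G) at 20.2 FPKM. Serpina3h read 24.3, 12.9 and 14.9 FPKM in WT_Oxarol, against 33.6, 28.6 and 28.1 FPKM in WT_PBS, with no overlap and a difference of -0.81 ± 0.20 (SE, adjusted p = 0.17). Without WT_Oxarol replicate 1 the Serpina3h difference was -1.06 and passed (limma adjusted p = 0.0085). Serpina3i, with 15.4% of its 50-base stretches found in other genes, read 4.12, 2.77 and 2.87 FPKM in WT_Oxarol, against 6.88, 5.14 and 4.49 FPKM in WT_PBS (difference -0.61 ± 0.17, adjusted p = 0.24). Serpina3h shares 24.4% of its 50-base stretches with other genes, so reads of these copies may be split between them.

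**Figure D2:**
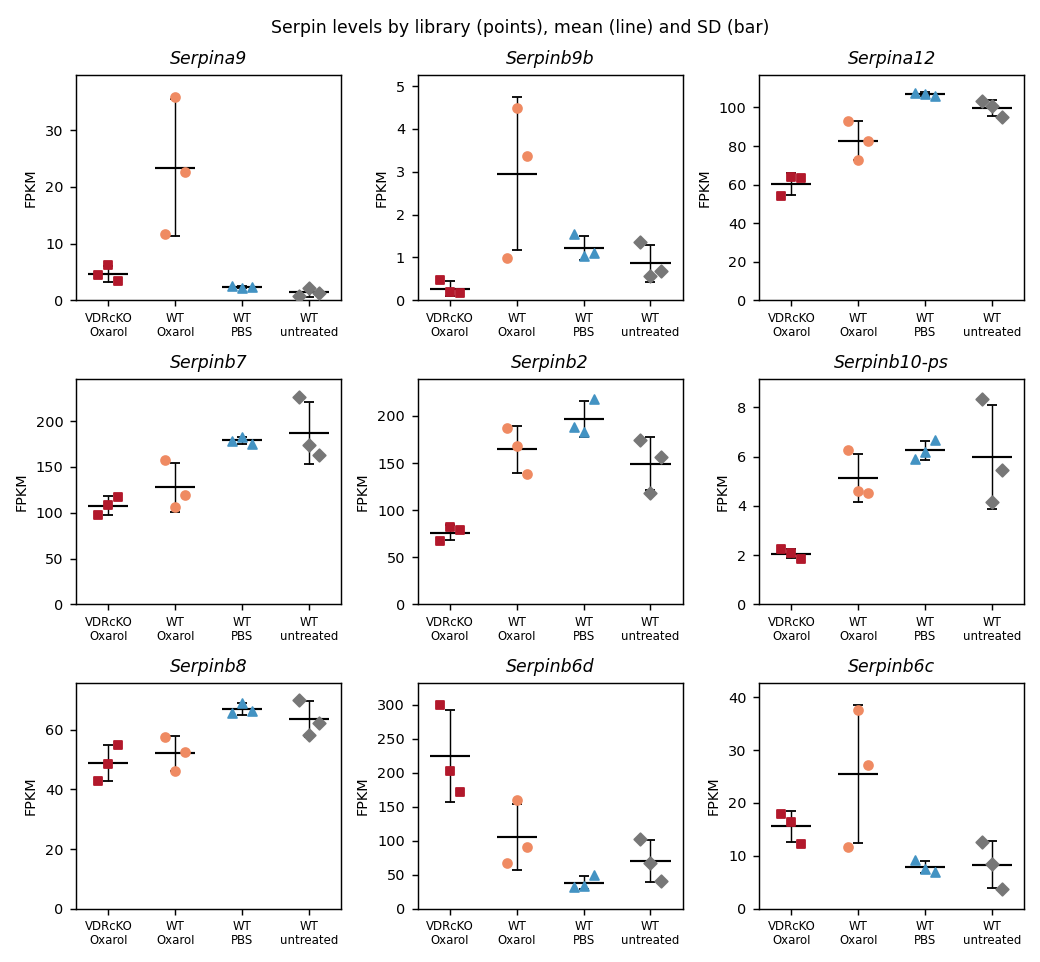
FPKM (vertical axis, from 0) of 9 serpins in the 4 groups, with 1 point a library, a horizontal line at the group mean and a bar for the SD (n = 3). Serpina9 stands at 11.7 to 35.8 FPKM in WT_Oxarol and at or below 6.19 FPKM elsewhere; Serpinb2 stands at 67.5 to 82.1 FPKM in VDRcKO_Oxarol and at 118 FPKM or more elsewhere.

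Of the 5 serpins that were lower in the libraries labelled VDRcKO_Oxarol than in WT_PBS, 4 lay in the chromosome 1 Serpinb cluster. That is 4 of the 12 tested genes of the cluster, where 5.49% of all genes tested were lower. Map order of the cluster in the annotation is Serpinb5, Serpinb12, Serpinb13, Serpinb3a, Serpinb3d, Serpinb3b, Serpinb3c, Serpinb11, Serpinb7, Serpinb2, Serpinb10 and Serpinb8. The last 4 of these neighbours were each lower in VDRcKO_Oxarol than in WT_PBS. With the code series as a term the calls of Serpinb7 and Serpinb8 were lost. The deposited values list Serpinb10 under its older name Serpinb10-ps. The RefSeq promoters of those 4 genes are printed because the genes are adjacent and all 4 were called in that comparison. Each runs from 250 bases before to 50 bases after the transcript start on the plus strand of GRCm38.p6, a later build than the mm9 of the values. Capitals mark TGANTCA, the recognition sequence of AP-1 (Fos and Jun proteins), which is the same on both strands up to the middle base, and TATAAA on the gene's own strand. The windows are chr1:107422439-107422738 for Serpinb7, chr1:107511173-107511472 for the more upstream of the Serpinb2 starts, chr1:107528753-107529052 for Serpinb10 and chr1:107589756-107590055 for Serpinb8.
Serpinb7: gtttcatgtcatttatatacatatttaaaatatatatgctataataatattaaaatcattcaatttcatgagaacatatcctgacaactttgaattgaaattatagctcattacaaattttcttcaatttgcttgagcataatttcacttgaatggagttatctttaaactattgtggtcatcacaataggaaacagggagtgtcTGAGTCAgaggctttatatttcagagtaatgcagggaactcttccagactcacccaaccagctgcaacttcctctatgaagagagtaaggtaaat
Serpinb2: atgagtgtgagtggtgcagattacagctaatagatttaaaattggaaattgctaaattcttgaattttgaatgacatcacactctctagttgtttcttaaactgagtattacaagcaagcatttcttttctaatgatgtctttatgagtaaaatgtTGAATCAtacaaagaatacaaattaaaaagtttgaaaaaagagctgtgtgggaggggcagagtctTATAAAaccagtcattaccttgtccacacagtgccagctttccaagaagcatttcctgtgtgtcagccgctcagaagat
Serpinb10: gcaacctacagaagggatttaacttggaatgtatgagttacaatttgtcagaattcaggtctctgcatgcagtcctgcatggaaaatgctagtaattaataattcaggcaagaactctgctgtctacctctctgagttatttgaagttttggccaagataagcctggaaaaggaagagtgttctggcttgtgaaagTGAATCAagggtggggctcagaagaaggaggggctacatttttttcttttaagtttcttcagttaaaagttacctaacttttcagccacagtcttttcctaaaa
Serpinb8: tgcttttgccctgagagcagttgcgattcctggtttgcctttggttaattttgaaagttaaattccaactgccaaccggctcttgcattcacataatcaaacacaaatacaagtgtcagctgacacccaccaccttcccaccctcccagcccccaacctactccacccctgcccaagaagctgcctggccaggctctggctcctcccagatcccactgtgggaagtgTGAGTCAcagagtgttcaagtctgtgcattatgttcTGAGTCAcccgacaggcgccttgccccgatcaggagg

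All 4 windows held TGANTCA, first at position -45 from the start in Serpinb7, -94 in Serpinb2, -54 in Serpinb10 and -23 in Serpinb8, where it occurred 2 times. TGANTCA was found in 7.81% of 32851 mouse promoter windows of the same length, and in 8 of the 31 tested serpins that had a window. Those 8 were Serpinb5, Serpinb12, Serpinb11, Serpinb7, Serpinb2, Serpinb10 and Serpinb8 of the chromosome 1 cluster and Serpina1a of chromosome 12. Of the 8, Serpinb5, Serpinb12, Serpinb11 and Serpina1a were called in no comparison as fitted over all 12 libraries. A link between TGANTCA and the differences was not tested. TATAAA on the gene's strand stood at -29 in Serpinb2. It was found in 8.32% of all windows and in 8 of the 31 tested serpins. Some of the 31 had more than 1 window, and a match in any of them was counted. The vitamin D receptor binds a pair of half-sites in the same direction with 3 bases between them. Half-sites were spelled AGGTCA, with the second G changed as AGTTCA, with a leading G as GGGTCA or likewise as GGTTCA. Both strands were read, and such a pair was in 0.0396% of all windows and in no window of the 31 tested serpins. These are letter matches in short windows, and a missing match says nothing of sites elsewhere. Serpina9 had no entry.

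Serpinb2 inhibits urokinase. Serpinb2 read 67.5, 82.1 and 79.1 FPKM in VDRcKO_Oxarol, against 188, 168 and 138 FPKM in WT_Oxarol. It read 188, 183 and 218 FPKM in WT_PBS and 174, 118 and 156 FPKM in WT_untreated. Every library labelled VDRcKO_Oxarol lay below all 9 wild-type libraries. The difference was -1.10 ± 0.16 from WT_Oxarol (SE, limma adjusted p = 0.0057) and -1.36 ± 0.16 from WT_PBS (SE, adjusted p = 0.0014), and within the second code series it was -0.86 (adjusted p = 0.11) and -1.51 (adjusted p = 0.064). WT_Oxarol and WT_PBS overlapped (difference -0.26 ± 0.16).

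The neighbouring Serpinb10-ps (bomapin, a nuclear serpin of myeloid cells in humans) was also lowest in VDRcKO_Oxarol, at a far lower level. It read 2.24, 2.09 and 1.86 FPKM in VDRcKO_Oxarol, against 6.26, 4.60 and 4.53 FPKM in WT_Oxarol and 5.92, 6.20 and 6.66 FPKM in WT_PBS. WT_untreated ears held 8.32, 4.16 and 5.47 FPKM, and no wild-type library overlapped with VDRcKO_Oxarol. The differences were -0.99 ± 0.19 from WT_Oxarol (SE, limma adjusted p = 0.015) and -1.25 ± 0.19 from WT_PBS (SE, adjusted p = 0.0042). The first did not pass with the code series as a term (-0.95, adjusted p = 0.064), and within the second code series they were -0.85 (adjusted p = 0.11) and -1.32 (adjusted p = 0.082). Serpinb10-ps shares 2.88% of its 50-base stretches with Serpinb2, and a level this low next to a gene at 147 FPKM could hold misplaced reads, which was not tested.

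Serpinb7 and Serpinb8 were lower in VDRcKO_Oxarol than in WT_PBS, while VDRcKO_Oxarol and WT_Oxarol overlapped. Serpinb7 read 97.0, 108 and 117 FPKM in VDRcKO_Oxarol, 157, 106 and 119 in WT_Oxarol, 178, 183 and 175 in WT_PBS and 226, 174 and 162 in WT_untreated. Its difference from WT_PBS was -0.73 ± 0.15 (SE, limma adjusted p = 0.015), and -0.70 within the second code series (adjusted p = 0.15). Serpinb8, an inhibitor of furin whose human gene is mutated in a peeling skin disorder, read 42.8, 48.6 and 54.9 FPKM in VDRcKO_Oxarol, 57.7, 46.1 and 52.6 in WT_Oxarol, 65.6, 69.2 and 66.4 in WT_PBS and 70.1, 58.2 and 62.5 in WT_untreated. Its difference from WT_PBS was -0.46 ± 0.11 (SE, limma adjusted p = 0.024). Both calls were lost with the code series as a term (adjusted p = 0.073 for Serpinb7 and 0.088 for Serpinb8) and without any 1 of VDRcKO_Oxarol replicate 1, WT_PBS replicate 1 and WT_PBS replicate 2, and that of Serpinb8 without VDRcKO_Oxarol replicate 2 and within the second code series (-0.44, adjusted p = 0.26) as well. The same genes stood lower in WT_Oxarol than in WT_PBS without overlap, Serpinb7 by -0.50 ± 0.15 and Serpinb8 by -0.36 ± 0.11, and neither passed (limma adjusted p = 0.33 for each).

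The other 8 genes of the cluster were not called in any comparison. Serpinb12, an inhibitor of trypsin-like proteases, read 85.2, 94.6 and 101 FPKM in VDRcKO_Oxarol, 103, 66.8 and 77.1 in WT_Oxarol, 95.6, 123 and 87.5 in WT_PBS and 104, 98.1 and 58.7 in WT_untreated, with all groups overlapping. The Serpinb3 copies, mouse relatives of the human squamous cell carcinoma antigens, ranged from Serpinb3b at a mean of 47.4 FPKM to Serpinb3d at 1.01 FPKM. Serpinb3a read 11.33, 11.01 and 12.9995 FPKM in VDRcKO_Oxarol, 8.95, 4.64 and 4.10 in WT_Oxarol, 4.97, 5.64 and 2.87 in WT_PBS and 4.82, 4.10 and 17.4 in WT_untreated. VDRcKO_Oxarol lay above all WT_Oxarol and WT_PBS libraries, but WT_untreated replicate 3 was higher still. The difference of 1.25 ± 0.44 from WT_PBS did not pass (SE, limma adjusted p = 0.073) but did under 4 alternatives, among them leaving out WT_untreated replicate 3 (adjusted p = 0.014). Against WT_Oxarol it was 0.95 ± 0.44 (adjusted p = 0.16), which passed under 3 alternatives, among them leaving out that library (adjusted p = 0.039). Serpinb3a has 15.2% of its 50-base stretches in other genes, the most in Gm8080 (9.87%), followed by its copy Serpinb3b and by Gm8089. Over the 12 genes the median difference of VDRcKO_Oxarol was -0.24 from WT_PBS, beside 0.09 for all genes tested, and -0.08 from WT_Oxarol, beside 0.08 for all genes tested.

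**Figure D3:**
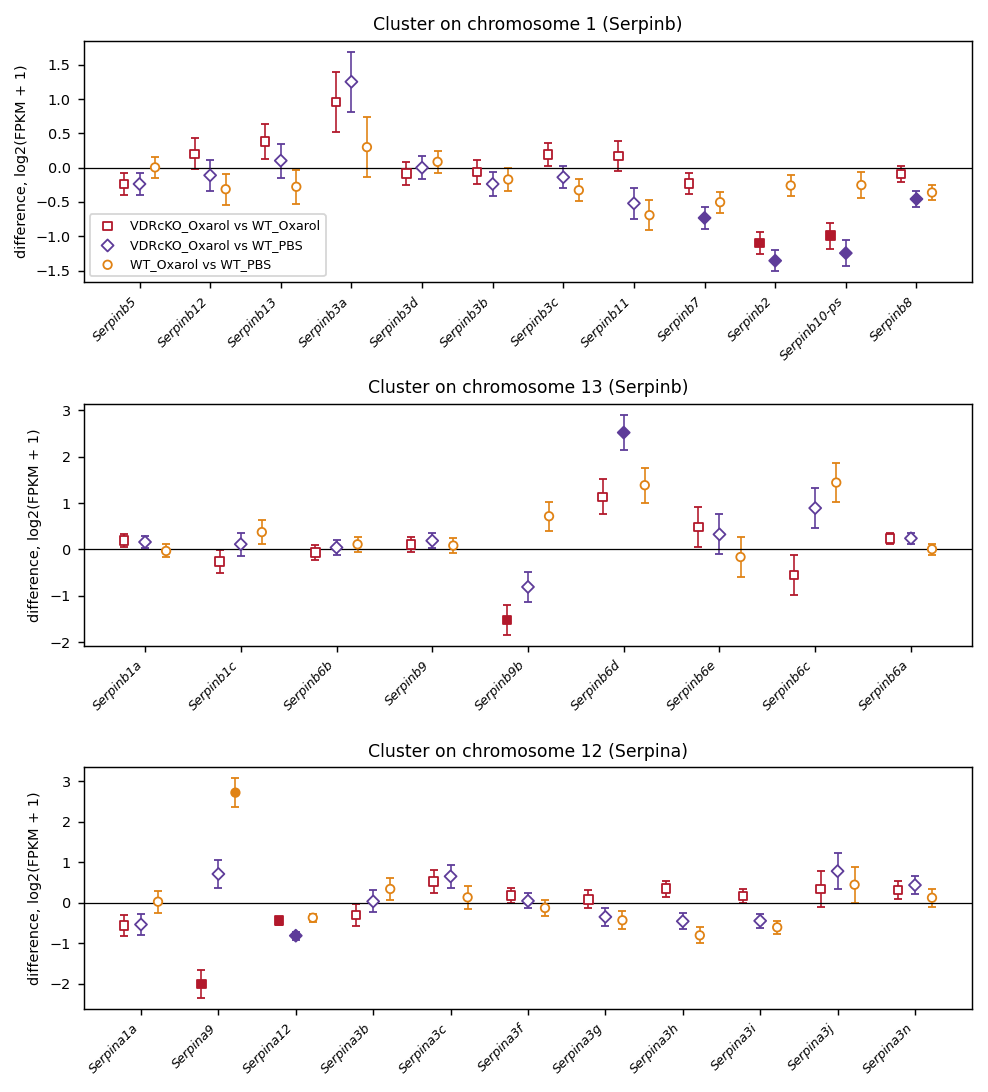
Differences on the log2(FPKM + 1) scale (vertical axis) for the tested genes of the 3 clusters in map order, for VDRcKO_Oxarol against WT_Oxarol, VDRcKO_Oxarol against WT_PBS and WT_Oxarol against WT_PBS, with bars of 1 standard error; filled points passed an adjusted p of 0.05. Serpinb7, Serpinb2, Serpinb10-ps and Serpinb8 are adjacent and lie below 0 against WT_PBS; Serpina9 is the only gene with a filled point for WT_Oxarol against WT_PBS.

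In the chromosome 13 cluster 1 of the 9 tested copies was called between VDRcKO_Oxarol and WT_PBS, Serpinb6d as higher, beside 16.3% of all genes tested. Between VDRcKO_Oxarol and WT_Oxarol 1 of the 9 was called, Serpinb9b as lower, beside 13.1% of all genes tested. Serpinb6d, a mouse copy of the cathepsin G inhibitor gene SERPINB6 of humans, read 300, 203 and 171 FPKM in VDRcKO_Oxarol, against 66.4, 160 and 90.8 FPKM in WT_Oxarol and 31.9, 33.2 and 49.0 FPKM in WT_PBS. WT_untreated ears held 103, 67.7 and 41.3 FPKM. VDRcKO_Oxarol lay above every wild-type library, and WT_Oxarol above every WT_PBS library. The difference of VDRcKO_Oxarol from WT_PBS was 2.52 ± 0.38 (SE, limma adjusted p = 0.0040) and 2.13 within the second code series (adjusted p = 0.14). From WT_Oxarol it was 1.13 ± 0.38 (adjusted p = 0.070), which passed without WT_untreated replicate 1 (adjusted p = 0.039) or replicate 3 (adjusted p = 0.046) and after quantile normalization (adjusted p = 0.045). WT_Oxarol differed from WT_PBS by 1.38 ± 0.38 and did not pass (adjusted p = 0.24).

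Serpinb6c was highest in WT_Oxarol. It read 17.9, 16.4 and 12.3 FPKM in VDRcKO_Oxarol, 11.6, 37.6 and 27.2 in WT_Oxarol, 9.17, 7.44 and 6.9998 in WT_PBS and 12.6, 8.52 and 3.72 in WT_untreated. The difference of 1.44 ± 0.42 between WT_Oxarol and WT_PBS did not pass (SE, limma adjusted p = 0.30), and 10.4% of its 50-base stretches occur in other genes, Serpinb6b and Serpinb6d among them. Serpinb6a differed by less: 78.3, 74.4 and 76.7 FPKM in VDRcKO_Oxarol, 56.3, 69.0 and 70.2 in WT_Oxarol, 66.9, 59.6 and 67.6 in WT_PBS and 81.2, 63.1 and 81.7 in WT_untreated. Serpinb1a, an inhibitor of neutrophil elastase, lay between 20.2 and 31.3 FPKM over the 12 libraries.

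Serpinb9b, a copy of the granzyme B inhibitor gene Serpinb9, was low everywhere and lowest in VDRcKO_Oxarol. It read 0.46, 0.19 and 0.16 FPKM there, against 0.99, 4.50 and 3.37 FPKM in WT_Oxarol, 1.54, 1.03 and 1.10 in WT_PBS and 1.35, 0.56 and 0.67 in WT_untreated. VDRcKO_Oxarol lay below all 9 wild-type libraries. The difference from WT_Oxarol was -1.52 ± 0.32 (SE, limma adjusted p = 0.018), on a scale that understates changes of low genes. The depth estimate puts these values at 1.14 to 2.28 fragments per kilobase of Serpinb9b transcript in VDRcKO_Oxarol and 18.6 to 116 in WT_Oxarol, so the VDRcKO_Oxarol values rest on few reads. The call was lost with the code series as a term (adjusted p = 0.068), within the second code series (-1.79, adjusted p = 0.087) and without VDRcKO_Oxarol replicate 2, VDRcKO_Oxarol replicate 3 or WT_Oxarol replicate 2. Serpinb9 itself read 1.31 to 2.30 FPKM in VDRcKO_Oxarol and 1.498 to 1.84 FPKM in WT_Oxarol.

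Read against all genes, the shares of serpins called in the comparisons with VDRcKO_Oxarol were near the background with both directions pooled. Taken by direction, the share called lower was larger among serpins than among all genes, and the share called higher was smaller. Whether the split by direction differs from that of all genes was not tested. VDRcKO_Oxarol and WT_Oxarol differed in 5 of 36 tested serpins (13.9%), all lower, beside 13.1% of all genes tested; 4.43% of all genes were called lower and 8.71% higher. Those 5 were Serpinb2, Serpina9, Serpinb10-ps, Serpinb9b and Serpina12. VDRcKO_Oxarol and WT_PBS differed in 7 of 36 (19.4%), beside 16.3% of all genes tested. Of the 7, Serpinb6d and Serpinh1 were higher, where 10.8% of all genes were, and Serpinb2, Serpina12, Serpinb10-ps, Serpinb7 and Serpinb8 were lower, where 5.49% of all genes were. Both comparisons use the same VDRcKO_Oxarol libraries. With the code series as a term the calls were 2 against WT_Oxarol and 4 against WT_PBS, within the second code series 0 and 1. None of the 7 was called within the second code series against WT_PBS; the 1 call there was Serpinb3a (1.72, limma adjusted p = 0.046). The calls against WT_PBS were also 4 without VDRcKO_Oxarol replicate 1, WT_PBS replicate 1 or WT_PBS replicate 2, up to 9 when another library was left out, and 13 with only the 2 groups fitted. Other scalings shift the whole comparison: quantile normalization turns the split of all genes against WT_Oxarol, from 1225 higher and 623 lower, to 820 higher and 1292 lower, and the median of all genes from 0.08 to -0.04 (against WT_PBS, from 0.09 to -0.04). Hair follicle markers passed as higher in VDRcKO_Oxarol than in WT_Oxarol for 15 of 18 genes and macrophage markers for 9 of 11, against none of 7 basal keratinocyte markers in either direction. Against WT_PBS 8 of 18 hair follicle and 10 of 11 macrophage markers were higher and 1 of 7 basal keratinocyte markers lower; the part of these in the serpin differences was not tested. In whole skin, fewer cells of a type and less RNA per cell cannot be told apart. With no PBS or untreated ears of the K5-Cre;VDR f/f line, genotype and response to the ointment cannot be told apart in these 2 comparisons.

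The single serpin genes differed less. Serpinh1, the chaperone that folds procollagen in the endoplasmic reticulum, read 263, 223 and 188 FPKM in VDRcKO_Oxarol, 153, 172 and 191 in WT_Oxarol, 167, 144 and 153 in WT_PBS and 145, 174 and 214 in WT_untreated. VDRcKO_Oxarol lay above WT_PBS without overlap and overlapped with WT_Oxarol and WT_untreated. Its difference from WT_PBS was 0.52 ± 0.16 (SE, limma adjusted p = 0.048), a call lost under 16 of 21 alternatives, among them both scalings and the code series as a term (0.38, adjusted p = 0.21). Against WT_Oxarol it was 0.38 ± 0.16 (adjusted p = 0.13). Genes for fibrillar collagens and collagen processing were higher in VDRcKO_Oxarol than in WT_Oxarol for 12 of 24 tested, where 8.71% of all genes tested were higher, with none lower and a median difference of 0.63 beside 0.08 for all genes tested. Fibroblast markers were higher for 4 of 10 (sums of 3529 to 4173 FPKM in VDRcKO_Oxarol and 2372 to 3023 FPKM in WT_Oxarol) and cartilage markers for 7 of 11 (248 to 263 FPKM in VDRcKO_Oxarol and 122 to 215 FPKM in WT_Oxarol); their part in the Serpinh1 difference was not tested. The collagen genes called included Col1a1 (1.90 ± 0.42, adjusted p = 0.020), Col3a1 (1.46 ± 0.28, adjusted p = 0.015), Col5a1, Col5a2, the collagen cross-linking enzyme Lox (0.93 ± 0.16, adjusted p = 0.0092) and the lysyl hydroxylase Plod1.

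Serping1, which inhibits the complement proteases C1r and C1s, read 235, 182 and 190 FPKM in VDRcKO_Oxarol, 146, 163 and 179 in WT_Oxarol, 162, 148 and 172 in WT_PBS and 192, 219 and 230 in WT_untreated. The ointment and PBS groups of wild-type ears lay below both VDRcKO_Oxarol and untreated ears. Serpinf1 read 250, 247 and 249 FPKM in VDRcKO_Oxarol, 234, 205 and 281 in WT_Oxarol, 247, 236 and 259 in WT_PBS and 283, 288 and 277 in WT_untreated. Serpine2 (protease nexin 1, an inhibitor of thrombin and plasminogen activators) lay at 52.1 to 56.3 FPKM in VDRcKO_Oxarol, 37.4 to 48.7 in WT_Oxarol, 32.2 to 47.3 in WT_PBS and 50.2 to 61.8 in WT_untreated. None of the 3 passed in any comparison.

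PBS and no treatment gave no serpin call. Of 36 tested serpins 0 passed between WT_PBS and WT_untreated with limma, and 0.00711% of all genes tested (1 gene) passed. An unadjusted p under 0.05 was found for 4 of the 36 serpins and for 1312 of the 14059 genes tested. The 4 serpins were Serping1, Serpine2, Serpinb2 and Serpina3c. Serpinb2 was higher in WT_PBS and the others lower. The share of all genes whose libraries did not overlap between groups was not counted for any comparison.

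A list of 49 genes held proteases taken as possible partners of serpins, with receptors and cofactors. Whether serpins act on each of them was not tested. Of the 49, 37 were tested for differences. Between WT_Oxarol and WT_PBS 3 passed, all higher. Of all genes tested 0.249% were higher. The 3 were kallikreins, secreted serine proteases of the outer epidermis: Klk13 (3.58 ± 0.41, adjusted p = 0.0067), Klk12 (3.64 ± 0.46, adjusted p = 0.0092) and Klk6 (2.85 ± 0.35, adjusted p = 0.0078), the last named after its values were seen. Klk12 read 8.86, 49.1 and 32.9 FPKM in WT_Oxarol, against 0.819, 1.47 and 0.936 FPKM in WT_PBS, and was lowest in WT_Oxarol replicate 1, as Serpina9 was.

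Between VDRcKO_Oxarol and WT_Oxarol 12 of the 37 were higher and 4 lower, where 8.71% and 4.43% of all genes tested were, with a median difference of 0.24 beside 0.08 for all genes tested. Casp14, the caspase of the cornifying epidermis, read 156, 167 and 148 FPKM in VDRcKO_Oxarol, against 41.6, 40.4 and 29.99 FPKM in WT_Oxarol (difference 2.06 ± 0.18, limma adjusted p = 0.00069). Ctsk (cathepsin K, a collagen-degrading protease) was higher by 1.09 ± 0.15 (adjusted p = 0.0053), Gzmc (a granzyme) by 1.14 ± 0.16 (adjusted p = 0.0056) and F2r (the thrombin receptor) by 0.68 ± 0.10 (adjusted p = 0.0062). Klk12 was lower, at 1.37, 2.08 and 1.49 FPKM in VDRcKO_Oxarol, by a difference of -3.28 ± 0.46 (limma adjusted p = 0.0056), and Klk13 by -2.43 ± 0.41 (adjusted p = 0.0096). Against WT_PBS 15 of the 37 were higher in VDRcKO_Oxarol and 2 lower, where 10.8% and 5.49% of all genes tested were.

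**Figure D4:**
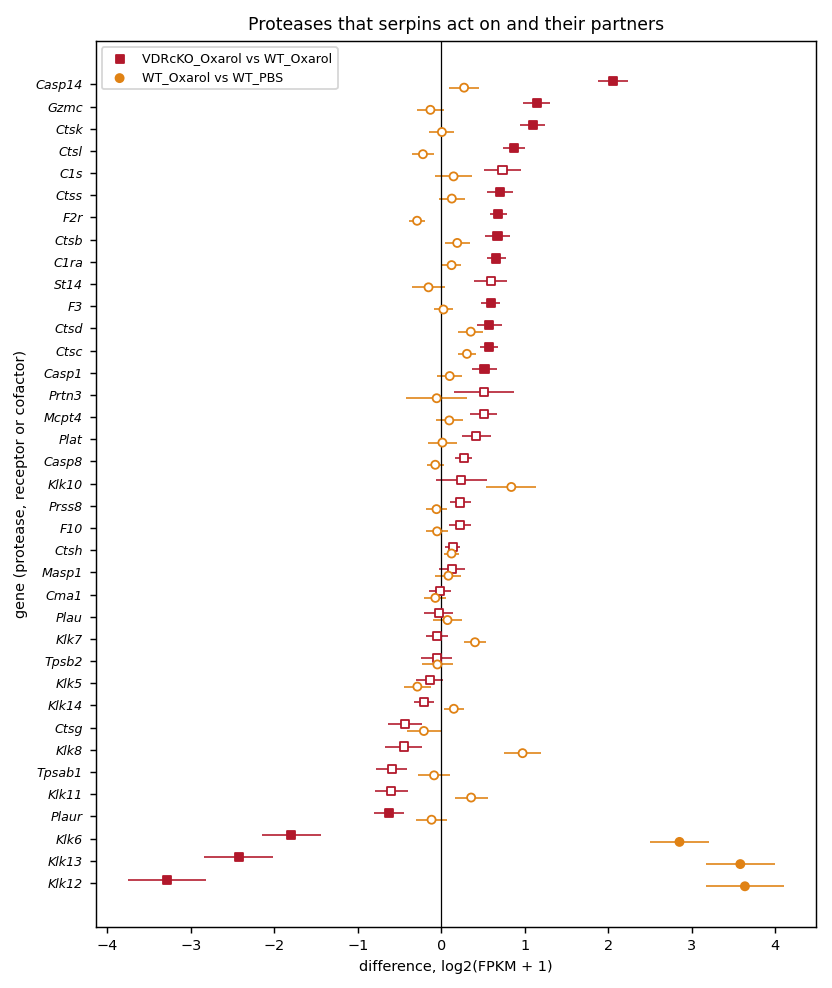
Differences on the log2(FPKM + 1) scale (horizontal axis) of the 37 tested proteases, receptors and cofactors (down the page), for VDRcKO_Oxarol against WT_Oxarol and for WT_Oxarol against WT_PBS, with bars of 1 standard error; filled points passed an adjusted p of 0.05. The kallikreins Klk6, Klk13 and Klk12 are at the right for WT_Oxarol against WT_PBS and at the left for VDRcKO_Oxarol against WT_Oxarol, which share the WT_Oxarol libraries.

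Serine protease inhibitors outside the serpin family were a list of 28, with 20 tested. Between VDRcKO_Oxarol and WT_Oxarol 1 was higher, Expi (2.25 ± 0.48, limma adjusted p = 0.020), and 2 were lower, Wfdc3 (-0.78 ± 0.14, adjusted p = 0.012) and Wfdc5 (-0.64 ± 0.16, adjusted p = 0.028), all of them whey acidic protein domain genes; over all genes tested, 8.71% were higher and 4.43% lower. The median difference of these inhibitors was 0.09 and that of the 36 serpins 0.13, beside 0.08 for all genes tested.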

How the data were processed

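RNA from ear skin was sequenced after preparation with an NEBNext Ultra kit, per the labels' protocols. TopHat2 2.0.8, Bowtie2 2.1.0, Cufflinks 2.1.1 and the build mm9 are named in the submitters' processing notes; settings and strand use: not given in the sources used here. The authors deposited 1 value per symbol and library, taken as FPKM from Cufflinks because the headers print no unit. All 12 value columns were matched to a sample.

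Groups came from the labels; replicate numbers follow deposit order. The log2 of FPKM + 1 was fitted with limma 3.58.1 under R 4.3.3 (intensity trend, 4 group means, 8 residual degrees of freedom) over the 14059 genes that reached 1 FPKM in 3 or more libraries, for 5 comparisons, each with Benjamini-Hochberg adjustment and a threshold of 0.05. Errors without another name are limma's moderated standard errors. The fit was run on simulated independent normal values without depth or code series differences between libraries. The depth estimate was run on values simulated with its own assumed lengths. Neither run shows how well the fit or the estimate does on these libraries. Depth assumes that 1 fragment gives the lowest value of a gene and uses GENCODE M21 lengths, so it is an estimate. Map order and promoters (RefSeq, GRCm38.p6) come from a build other than mm9; all 63 symbols matched, and 31 of the 36 tested genes had a promoter. Motifs and stretches of 50 bases shared between transcripts were counted by exact match.

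The members, lists and tests were chosen with earlier results of these data known. Any serpin of at least 1 FPKM could be named, with values per library for those called, the 10 most abundant and neighbours of called members. Other genes came from fixed lists, at most 6 a list, called ones first by adjusted p. The protease list went past that limit with Klk6, named after its values were seen. Alternatives were quantile normalization and median-of-ratios scaling, a filter of 5 FPKM or none, a pseudocount of 0.1, only the 2 groups compared, the library code series as a term or alone, and leaving out each library; leaving out both WT_untreated replicate 3 and WT_PBS replicate 3 was added after seeing the data. Figures used Python 3.11.15 and matplotlib 3.10.9.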

Additional observations from a re-analysis of the deposited data

How the results depend on the processing

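The count of serpins called between WT_Oxarol and WT_PBS (1) was 0 when only the 2 groups were fitted, 0 in the first code series alone, 0 with both WT_untreated replicate 3 and WT_PBS replicate 3 left out, and 0 to 3 when 1 library was left out (0 without WT_Oxarol replicate 3 or WT_PBS replicate 1, and 3 without WT_Oxarol replicate 1). For VDRcKO_Oxarol against WT_Oxarol (5) it was 2 with the code series as a term, 0 in the second code series alone and 4 to 7 when 1 library was left out. For WT_Oxarol against WT_untreated (1) it was 0 with only the 2 groups, 0 in the first code series alone and 1 to 5 when 1 library was left out (5 without WT_Oxarol replicate 1). For VDRcKO_Oxarol against WT_PBS (7) it was 13 with only the 2 groups, 4 with the code series as a term, 1 in the second code series alone (Serpinb3a, none of the 7) and 4 to 9 when 1 library was left out (4 without VDRcKO_Oxarol replicate 1, WT_PBS replicate 1 or WT_PBS replicate 2). Between WT_PBS and WT_untreated it was 0 under every alternative run. The first series alone leaves 2 libraries in each wild-type group. The second leaves 1 library in each wild-type group beside all 3 of VDRcKO_Oxarol, and a lone library is then assumed to vary like the VDRcKO_Oxarol libraries. For the other changes the cause was not tested. Quantile normalization gave 820 genes higher and 1292 lower between VDRcKO_Oxarol and WT_Oxarol and 968 higher and 1620 lower between VDRcKO_Oxarol and WT_PBS; median-of-ratios scaling gave 826 and 1151, and 1037 and 1373. The difference of Serpina1a between VDRcKO_Oxarol and WT_Oxarol (-0.56) was 0.14 in the second code series alone, and that of Serpinb3a between WT_PBS and WT_untreated (-0.61) was 0.21 in the first code series alone and 0.21 with those 2 libraries left out; neither was called. No paired analysis was possible because the labels give no replicate numbers. VDRcKO_Oxarol libraries were the shallowest, which limits genes near 1 FPKM such as Serpinb9b.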
